A study of Mus musculus with 18 samples.

Results

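The spinal cord of mice carrying both human ATXN2 with a tract of 22 glutamines and human TDP-43 was compared with the cord of non-transgenic mice, which are 6 of the 18 RNA sequencing libraries of the series. The libraries were chosen by their genotype labels, 3 labelled Q22;TDP-43 (called the Q22 double knock-in here) and 3 labelled NTg. The NTg animals were C57BL/6 mice with neither human sequence, and the Q22 double knock-in animals were heterozygous for both. All were untreated and aged 10 months, and every library is 1 animal. The series also holds 3 libraries each of heterozygous Q22, Q33 (33 glutamines) and TDP-43 single knock-ins and of the double knock-in Q33;TDP-43 (the Q33 double knock-in). Strain background of the knock-in lines, insertion site of each human sequence, sex and litter: none of these is given in the sources used here.

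ATXN2 is a cytoplasmic RNA-binding protein that joins stress granules and binds poly(A)-binding protein, and a glutamine tract of intermediate length in it raises the risk of amyotrophic lateral sclerosis (ALS), a disease of motor neurons. TDP-43 is a mostly nuclear RNA-binding protein that controls splicing and long neuronal transcripts, and it forms cytoplasmic inclusions in most patients with ALS. The tract of the Q22 form is within the usual human range, so the group asks what the 2 human sequences together change in the cord when the tract is not expanded.

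The libraries of the 6 animals held between 18578745 and 25194968 counts, and a gene with 3 counts had 0.115 to 0.157 CPM (counts scaled by library size and TMM factor). The share of mitochondrial ribosomal RNA was 18.7% ± 1.78 in Q22 double knock-in libraries and 17.8% ± 3.05 in NTg libraries (SD, n = 3), a difference within the spread (two-sided exact permutation test, p = 0.6, where the smallest p that 3 against 3 allows is 0.1). Over the 500 genes that differed most in each pair of libraries, with sex-linked and caudal Hox genes left out, the root mean square log2 difference was 1.10 to 1.77 between NTg libraries and 1.30 to 1.42 between Q22 double knock-in libraries. Between the 2 groups it was 0.90 to 1.59 over 9 pairs. The highest of these lay below the highest NTg pair (1.77) and above the highest Q22 double knock-in pair (1.42). The median between groups likewise lay below that of the NTg pairs and above that of the Q22 double knock-in pairs. The Q22 double knock-in and the Q33 double knock-in were 1.56 to 2.18 apart over 9 pairs (median 1.86). The Q33 double knock-in libraries themselves were 1.28 to 1.86 apart (median 1.75).

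Of the 3 Q22 double knock-in libraries, 2 stood apart, each in its own way. Replicate 1 had high levels of the caudal Hox genes, which specify the lumbar and sacral segments of the cord. Their summed level was 94.3 CPM in replicate 1 against 3.97 and 4.61 CPM in replicates 2 and 3, and 17.9, 2.30 and 8.5 CPM in the NTg libraries. Hoxd10, a determinant of lumbar motor neurons, was at 18.4, 0 and 0 CPM in replicates 1 to 3 of the double knock-in and at 0.307, 0.157 and 0.0445 CPM in NTg. Hoxd11 was at 12.1, 0 and 0 CPM against 0.0768, 0.0522 and 0.0445 CPM, and Hoxa11 at 4.75, 0 and 0.138 CPM against 0 in all 3 NTg libraries. Hoxa10 (22.2, 0.616 and 1.06 CPM against 4.30, 1.41 and 2.27) and Hoxc10 (33, 3.27 and 3.41 CPM against 13.2, 0.678 and 6.10) were detected in every library. The groups overlapped in all 6 caudal Hox genes that passed the low-count filter, none passed the test (adjusted p = 1.0 in edgeR's quasi-likelihood test), and 1 library sets the fitted differences. Replicate 3 was the only one of the 6 libraries with more than 10 CPM of Y-linked reads (212 CPM over 4 genes, against at most 1.98 CPM in the other 5) and had 6.04 CPM of Xist against 477 to 655 CPM. Y-linked genes and Xist are not used as results.

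**Figure D1:**
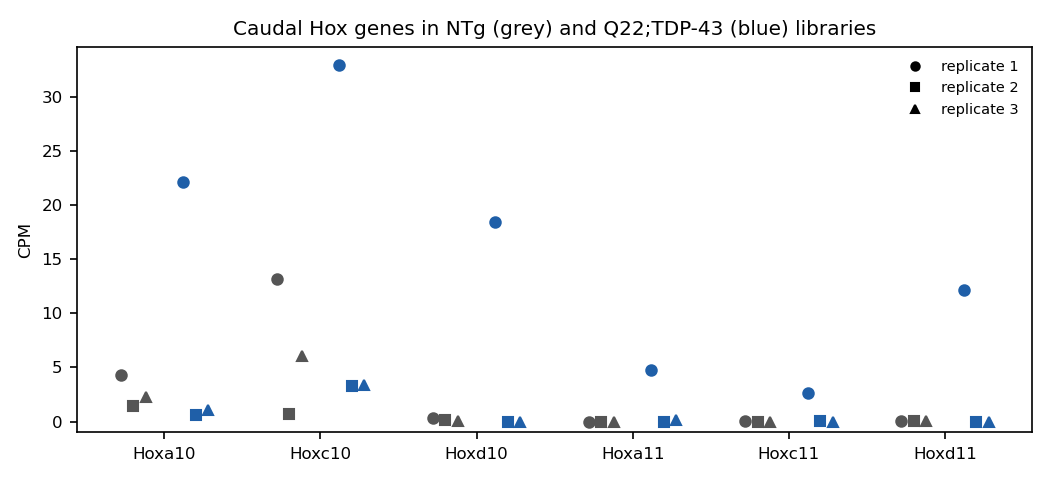
Levels (CPM, linear axis) of the 6 caudal Hox genes that passed the low-count filter, in the 3 NTg (grey) and 3 Q22 double knock-in (blue) libraries, with 1 marker shape per replicate number. Replicate 1 of the double knock-in lies above the other 5 libraries for every gene, for example 18.4 CPM of Hoxd10 against 0 and 0 CPM in replicates 2 and 3.

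Differences were tested for 20635 genes with edgeR's quasi-likelihood test. The Q22 double knock-in differed from NTg in 2 genes, 1 higher and 1 lower, or 0.00969% of the genes tested (adjusted p under 0.05). The gene that rose was Gabra2, which encodes the alpha-2 subunit of the GABA-A receptor, the chloride channel of fast inhibitory transmission. The gene that fell was Gm43041, an unnamed gene model. The median log2 fold change over all genes was -0.003 and 474 genes (2.3%) had an unadjusted p under 0.05, of which 213 (1.03%) were higher and 261 (1.26%) lower. DESeq2 also called 1 gene higher and 1 lower. Replicates here are different animals, 3 a group. The edgeR p-values rest on a spread between animals estimated in 1 fit of all 18 libraries, which the 6 genotypes share.

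Gabra2 (ENSMUSG00000000560.9, minus strand, chr5:70957597-71095849 of mm10) was at 150, 153 and 202 CPM in the Q22 double knock-in and at 87.0, 80.6 and 80.4 CPM in NTg. The groups did not overlap, and the lowest double knock-in library lay above the highest NTg library by a wide margin. The mean was 168 ± 29.2 CPM against 82.6 ± 3.78 CPM (SD, n = 3), from 3674 to 4383 counts a library against 1544 to 2267. The log2 fold change was 1.03 (SE 0.14, 95% confidence interval 0.73 to 1.32, adjusted p = 0.0182). The call was lost (adjusted p = 0.0897, 0.143 and 0.224) when NTg replicate 1, 2 or 3 was left out, and (adjusted p = 0.106) without replicate 3 of the double knock-in. The estimate stayed between 0.88 and 1.10 over the 16 alternatives tried, of which 10 kept the call.

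The sequence before the start of Gabra2 is shown because it is the 1 named gene that passed the test. The 250 bases before its annotated start in the RefSeq promoter table (GRCm38.p6, chr5:71095850-71096099, minus strand) read, 5′ to 3′, with capitals for a match to the GC box letters GGGCGG on either strand:
Gabra2: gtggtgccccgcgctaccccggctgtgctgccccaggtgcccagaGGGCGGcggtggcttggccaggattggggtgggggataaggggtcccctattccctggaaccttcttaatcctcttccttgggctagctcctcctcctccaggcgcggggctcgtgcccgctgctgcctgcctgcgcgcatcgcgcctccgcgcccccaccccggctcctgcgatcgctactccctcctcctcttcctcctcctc
The window held 1 match to GGGCGG or its complement, which 32.7% of 32851 promoter windows of the same length also hold. It held no match to the TATA box letters TATAAA on either strand, found in 12.4% of the windows. Its GC content was 70.0% against a median of 52.4% over all windows, and it had 18 CG pairs against a median of 6. These counts describe the letters only, and no measurement of binding or methylation was made here.

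Across the 6 genotypes the order of the Gabra2 means was the Q22 double knock-in (168 CPM), Q22, TDP-43, Q33, the Q33 double knock-in and NTg. The Q22 single knock-in libraries had 128, 141 and 152 CPM and the TDP-43 libraries 97.7, 139 and 136 CPM. The Q33 libraries had 83.4, 89.9 and 110 CPM, and the Q33 double knock-in libraries 77.4, 91.9 and 92.3 CPM. The libraries of each pair of neighbours in this order overlapped. The genotypes also differed in Y-linked reads, which are given with the interaction below. Against the NTg libraries that all these comparisons share, the log2 difference was 0.76 in Q22 (adjusted p = 0.747) and 0.59 in TDP-43 (adjusted p = 0.799), neither of which passed the test. The interaction, that is the double knock-in against the sum of its 2 single knock-ins, was -0.33 (95% confidence interval -0.75 to 0.09, adjusted p = 0.942 in edgeR). The Q33 double knock-in, which carries the same human TDP-43 and the longer tract, had lower Gabra2 than the Q22 double knock-in by the direct test (log2 difference -0.95, SE 0.14, adjusted p = 0.00057).

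**Figure D2:**
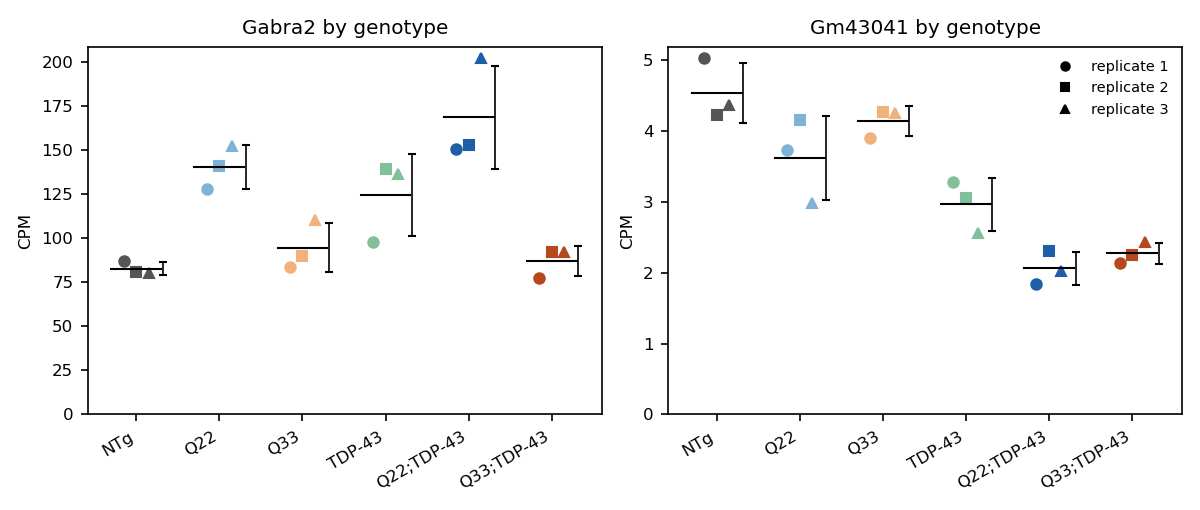
Level (CPM, linear axis from 0) of Gabra2 and Gm43041 in all 18 libraries by genotype, with 1 marker per animal, a line at the mean and a bar of 1 SD. For Gabra2 the 3 Q22 double knock-in animals lie at 150 to 202 CPM and the 3 NTg animals at 80.4 to 87.0 CPM, and the Q22 (128 to 152 CPM) and TDP-43 (97.7 to 139 CPM) single knock-ins lie above NTg, with the Q22 range overlapping that of the double knock-in. For Gm43041 the Q22 double knock-in (1.84 to 2.31 CPM) lies below NTg (4.23 to 5.03 CPM).

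Gabra2 sits in a cluster of GABA-A receptor subunit genes. Its neighbours Gabrg1 (log2 difference -0.13), Gabra4 (-0.14) and Gabrb1 (-0.11) did not pass the test, and of the 7 genes tested within 1 Mb of it, Gabra2 alone did. Gabra2 is also known as a gene whose expression differs between C57BL/6 substrains, and it was therefore in the list of substrain markers. The other 4 members tested did not pass, with log2 differences of 0.02 for Nnt, 0.35 for Wdfy1, 0.16 for Entpd4 and -0.12 for Crb1. The part of the strain background in the Gabra2 difference was not tested, since the labels give a strain for NTg only.

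Gm43041 (ENSMUSG00000104563.1, minus strand, chr5:59953511-59956140), annotated as a transcript still to be experimentally verified, lies outside the rule for naming genes and is named after its values were seen. It was at 1.84, 2.31 and 2.03 CPM in the Q22 double knock-in and at 5.03, 4.23 and 4.36 CPM in NTg. The groups did not overlap, and the values rest on 44 to 60 counts a library against 81 to 131. The log2 fold change was -1.14 (SE 0.18, 95% confidence interval -1.51 to -0.77, adjusted p = 0.0465). The call was kept in 3 of 16 alternatives and was lost whenever any 1 of the 6 libraries was left out (adjusted p = 0.143 to 0.656). Against the shared NTg libraries the log2 difference was -0.33 in Q22 (adjusted p = 0.908), -0.62 in TDP-43 (adjusted p = 0.997) and -0.998 in the Q33 double knock-in (adjusted p = 0.0023), and the 2 double knock-ins differed by 0.14 (adjusted p = 0.669). Gm43041 lies 11 Mb from Gabra2 and Atxn2 lies 50.6 Mb from it, all on chromosome 5.

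The other genes named here by rule did not pass the test (adjusted p = 1.0 for each in edgeR), and their values are descriptions. Among those with the smallest p on the higher side, Btaf1, which encodes an ATPase that removes TATA-binding protein from DNA, was at 90.6, 97.2 and 102 CPM in the Q22 double knock-in against 68.8, 70.6 and 72.2 CPM (log2 difference 0.45, SE 0.10). Ide, the insulin-degrading enzyme gene, was at 71.7, 84.8 and 66.4 CPM against 44.8, 55.8 and 57.3 CPM (0.50). The libraries did not overlap for either gene. Both are on chromosome 19, at a segment known to vary in copy number among C57BL/6 mice. None of the 26 genes tested from 1 Mb before Btaf1 to 1 Mb past Ide passed the test, and their median was 0.04. Of the 26, 3 had an unadjusted p under 0.05, against 2.3% of all genes. Btaf1 and Ide, named for their small p, are among the 3 and define the stretch, so this count is no test of it. This stretch was chosen after the values were seen. The part of a copy number difference was not tested.

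Slc25a18, a mitochondrial glutamate carrier of astrocytes, was at 48.3, 42.1 and 42.2 CPM against 31.5, 28.2 and 28.5 CPM (0.59). Egr1, an immediate early transcription factor, was at 22.1, 20.0 and 18.1 CPM against 16.4, 10.0 and 13.4 CPM (0.59). Both groups stayed apart for these genes as well. Also on the higher side were Col6a6 (1.54, from 7 to 38 counts a library), Ankrd37 (1.22), Vsig2 (0.97) and E4f1 (0.40).

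On the lower side, Neat1, the long noncoding RNA that builds nuclear paraspeckles and binds TDP-43, was at 205, 211 and 229 CPM in the Q22 double knock-in against 309, 346 and 287 CPM (log2 difference -0.55, SE 0.12). The lowest NTg library was above the highest double knock-in library. Neat1 was called by 1 of the 16 alternatives, the fit without a filter on low counts. In the Q33 double knock-in its log2 difference from the same NTg libraries was -0.58 (adjusted p = 0.0055), which passed the test, and the direct difference between the double knock-ins was -0.04 (adjusted p = 0.884).

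Sema3a, an axon guidance cue, was at 41.2, 51.6 and 44.4 CPM against 59.3, 57.1 and 59.0 CPM (-0.35), and Ssbp1, the mitochondrial single-stranded DNA-binding protein gene, at 15.2, 16.2 and 14.1 CPM against 19.1, 19.3 and 18.7 CPM (-0.33). Neither gene's groups overlapped. Svip, an inhibitor of endoplasmic reticulum-associated degradation, was at 60.3, 75.2 and 64.2 CPM against 75.0, 90.9 and 92.7 CPM (-0.37), and its groups overlapped. The others were Pls1 (-0.34), Trp53cor1 (-0.89), Ncoa4 (-0.39), Fank1 (-0.89), Ankrd23 (-1.20) and D1Ertd622e (-0.37). Over all genes, 660 (3.2%) had every Q22 double knock-in library above every NTg library and 762 (3.69%) had every one below, or 6.89% together, so separated libraries alone do not set these genes apart.

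**Figure D3:**
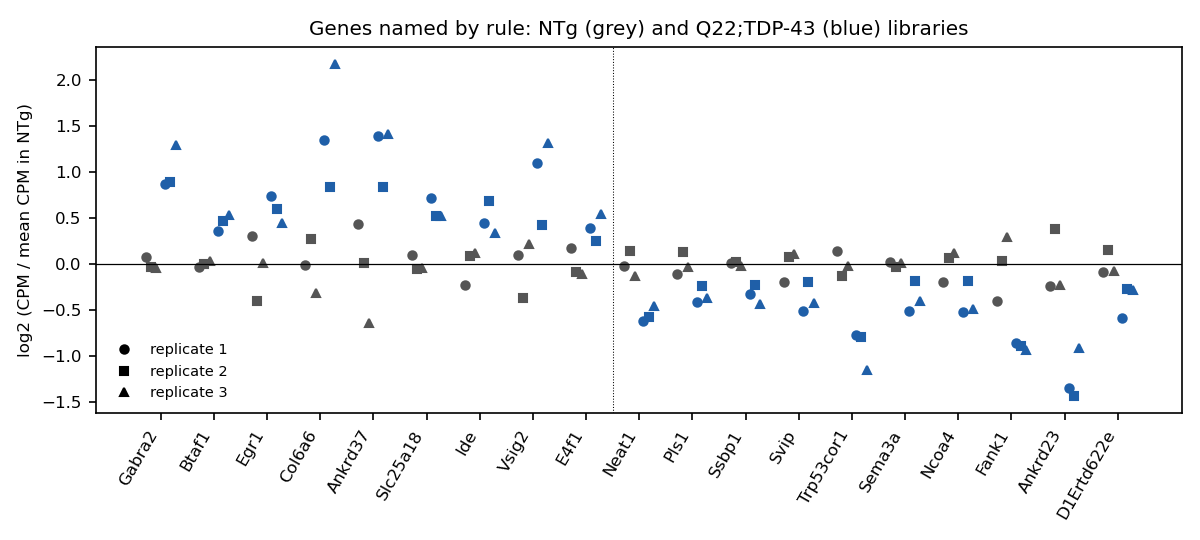
Level of the genes named by rule relative to its NTg mean (log2 of the CPM ratio), in the NTg (grey) and Q22 double knock-in (blue) libraries, with 1 marker shape per replicate number and the higher side left of the dotted line. Gabra2 is the only gene shown that passed the test, and the groups of Svip and Ncoa4 overlap.

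Mouse Atxn2 and Tardbp, the counterparts of the human sequences, did not pass the test. Atxn2 was at 168, 178 and 184 CPM in the Q22 double knock-in and 169, 193 and 185 CPM in NTg (log2 difference -0.05, 95% confidence interval -0.21 to 0.12). Tardbp, which encodes mouse TDP-43, had 123, 130 and 112 CPM against 127, 127 and 124 CPM (-0.06, -0.20 to 0.09). The groups overlapped for both genes. These reads were counted on mouse genes, so they do not measure the human sequences. None of the 55 genes tested within 1 Mb of Atxn2 and none of the 45 within 1 Mb of Tardbp passed the test.

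The intervals show how precisely each difference was measured. The 95% confidence interval of the log2 fold change lay within 2-fold for 15399 of 20635 genes (74.6%), for 15025 of 16644 genes whose mean reached 1 CPM in 1 of the groups or both (90.3%), and for 9316 of 9391 genes with at least 10 CPM (99.2%). Among the last it lay within 1.5-fold for 8705 (92.7%). An interval within a fold does not mean that a change of that size would have passed the test, so changes of up to 2-fold can have been missed.

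Gene lists were then read by their counts, beside the median of -0.003 over all genes tested. In 47 lists outside the caudal Hox and sex-linked genes, 688 distinct genes were tested, 1 passed (Gabra2) and 13 (1.89%) had an unadjusted p under 0.05, against 2.3% of all genes. Of the 37 lists with at least 10 members tested, 36 had a median log2 difference within 0.2 of 0. List members named below are examples chosen after their values were seen, and in cord tissue fewer cells of a type and less RNA per cell cannot be told apart.

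Lists tied to TDP-43 and ATXN2 had medians near 0. Of 21 TDP-43 targets among long neuronal genes, 0 passed and the median was 0.02, with every interval within 2-fold, from -0.24 (Nkain2) to 0.20 (Erc2). The neurexin gene Nrxn3 was at 233, 203 and 210 CPM against 221, 216 and 200 CPM, and the groups overlapped. Of 14 genes known for TDP-43 dependent splicing or cryptic exons, 0 passed (median 0.01), with Sort1, a sorting receptor, at 289, 326 and 304 CPM against 328, 292 and 313 CPM. These are gene totals, and exon use was not measured. None of 22 stress granule and ATXN2 partner genes passed (median -0.005), nor did any of 30 ALS genes (median 0.02) or 16 RNA-binding proteins of the FET and hnRNP families (median 0.06).

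No list of cell type markers held a called gene. None of 16 motor neuron markers passed and their median was -0.14, with 13 of 16 estimates below 0. Chat, the acetylcholine-synthesising enzyme, was at 18.2, 16.8 and 13.8 CPM against 13.3, 23.4 and 15.2 CPM, so the groups overlapped. The median was -0.43 without replicate 1, the library with high caudal Hox genes, and 0.01 without replicate 3, with 0 called in either. The part of the cord level sampled was not tested.

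Neuronal and synaptic genes had medians of 0.03 (17 pan-neuronal genes), 0.02 (22 synaptic vesicle genes) and 0.02 (22 ion channel and glutamate receptor genes), with every interval within 2-fold. The presynaptic fusion gene Snap25 was at 3209, 2977 and 2831 CPM against 2731, 3521 and 3203 CPM. Its groups overlapped. Genes of inhibitory neurons, the cells that release GABA onto receptors such as those holding the alpha-2 subunit, had a median of 0.07 over 13 members and 0 called.

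Among glia, 18 of 19 myelin genes had estimates below 0, with a median of -0.12 and 0 passing. Without replicate 1 that median was -0.03. Mbp, the myelin basic protein gene, was at 4042, 5135 and 4247 CPM against 4742, 4325 and 5123 CPM, and the groups overlapped. Homeostatic microglia markers (median -0.11, 17 tested), disease-associated microglia genes (-0.07, 21 tested), general astrocyte markers (-0.07, 14 tested) and reactive astrocyte genes (0.01, 15 tested) had 0 called each. Gfap, the astrocyte intermediate filament gene, ranged from 641 to 1509 CPM in the Q22 double knock-in animals and from 769 to 1436 CPM in NTg.

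Immediate early genes, which neurons switch on within minutes of activity, had the highest median of the lists with at least 10 members. Their median was 0.23 and 15 of 16 estimates were above 0, where 49.3% of all genes were. None passed the test, and 3 (18.8%) were higher with an unadjusted p under 0.05, namely Egr1, Egr3 and Ier2, against 1.03% of all genes. Egr3 was at 3.65, 3.89 and 4.93 CPM against 2.80, 1.67 and 2.58 CPM (log2 difference 0.81), and its groups did not overlap. Ier2 was at 1.15, 1.31 and 1.61 CPM against 0.844, 0.470 and 0.846 CPM (0.89). The AP-1 gene Fos overlapped, at 9.17, 7.28 and 9.87 CPM against 6.29, 5.58 and 10.2 CPM (0.25).

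Some lists of under 10 members had medians farther from 0, with 0 called in those described here. All 6 erythroid genes tested had estimates below 0 (median -0.66). The haem synthesis gene Alas2 was at 3.36, 4.20 and 4.29 CPM against 6.10, 6.63 and 5.65 CPM (-0.63), whereas the globin gene Hba-a1 overlapped widely, at 12.4, 15.8 and 21.2 CPM against 41.5, 12.8 and 8.01 CPM. Of 9 pericyte and smooth muscle markers, 8 had estimates above 0 (median 0.47). Myh11, smooth muscle myosin, was at 7.25, 5.35 and 4.38 CPM against 4.84, 2.56 and 3.38 CPM (0.65), and its groups overlapped. Of the markers of cells outside the cord, 2 of 7 Schwann cell, 2 of 6 dorsal root ganglion and 7 of 9 skeletal muscle genes passed the low-count filter, and 0 of them were called. Of the skeletal muscle genes, 6 of 7 had estimates above 0, and the muscle myosin gene Myh2 was at 0.410, 0.0385 and 0.461 CPM against 0, 0.104 and 0 CPM, so the groups overlapped.

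**Figure D4:**
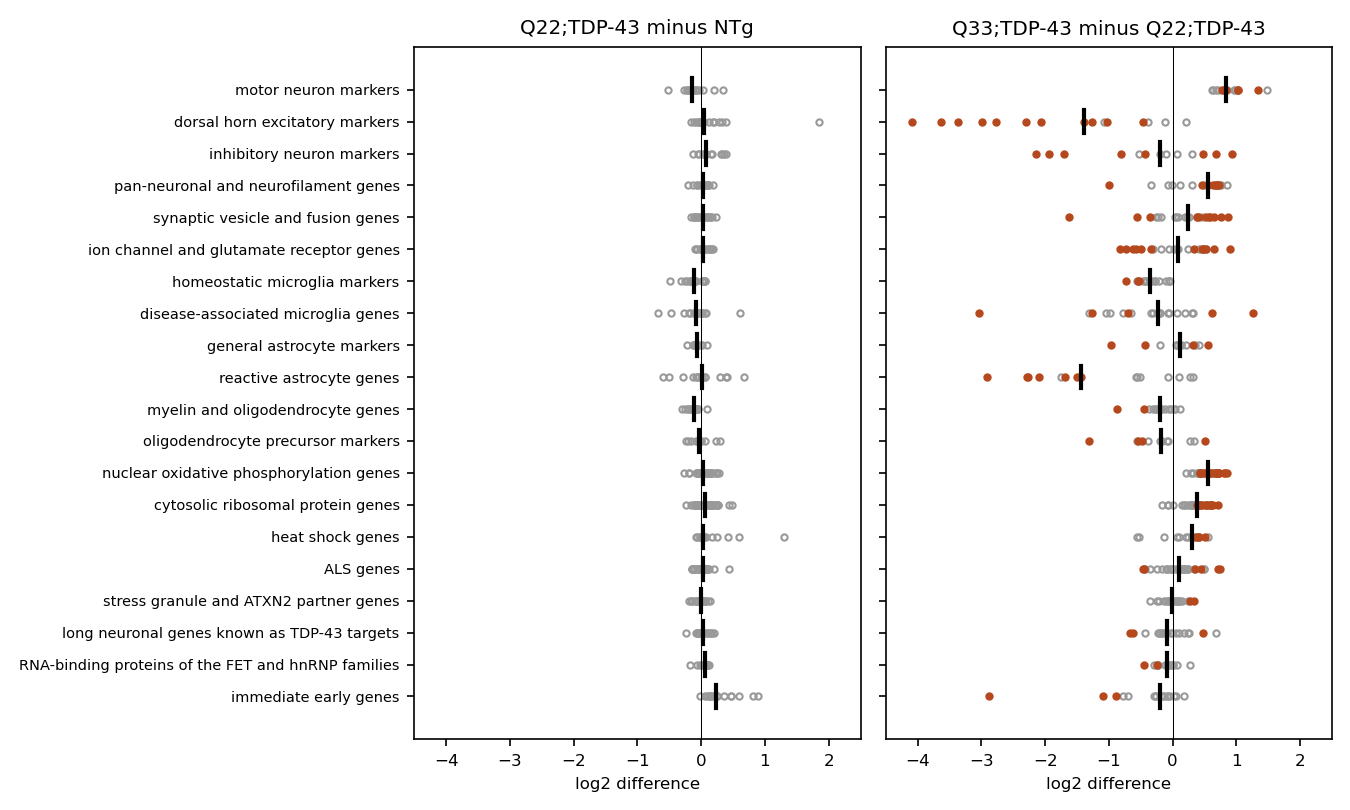
Log2 difference of each tested member (circle) and the median (black bar) of 20 gene lists, for the Q22 double knock-in minus NTg (left) and the Q33 double knock-in minus the Q22 double knock-in (right), with filled circles for genes that passed the test. On the left no member shown passed and the medians lie from -0.14 to 0.23. On the right 11 of 15 dorsal horn markers are filled and lie below 0.

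Whether the 2 human sequences together differed from the sum of their single knock-ins was asked with the interaction term. The groups it uses also differed in Y-linked reads. These were at 200, 201 and 162 CPM in Q22 and at 156, 193 and 1.10 CPM in TDP-43. They were at 1.27, 1.12 and 212 CPM in the Q22 double knock-in and at most 1.98 CPM in NTg. The interaction and the single knock-in comparisons thus set apart animals that differ in these reads as well as in genotype. No gene passed in edgeR, and 828 genes (4.01%) had an unadjusted p under 0.05. DESeq2 called 2, the gene model Gm37758 (log2 difference -1.99) and Capn11, a calpain protease gene (-4.56), both named after their values were seen. No gene passed the test in either single knock-in against NTg (0 called each in edgeR, with 873 genes, or 4.23%, of unadjusted p under 0.05 in each). The Y-linked genes were among those that did not pass, so 0 called does not mean that no gene differed.

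The Q33 double knock-in was tested directly against the Q22 double knock-in. Beside tract length, the libraries differed in mitochondrial ribosomal RNA share (23.4% to 28.7% against 16.7% to 20.1%). Their summed caudal Hox levels were 53.4 to 103 CPM against 94.3, 3.97 and 4.61 CPM. The part of the tract length in the differences was therefore not tested. The test called 2650 genes (12.8%). Q33 double knock-in levels were above those of the Q22 double knock-in for 1376 genes (6.67%) and below them for 1274 (6.17%). Dorsal horn excitatory markers were lower, with 11 of 15 called, all lower, and a median log2 difference of -1.39 against -0.01 over all genes. In the Q22 double knock-in against NTg the same list had 0 called and a median of 0.04. The list was chosen with earlier results of these data known.

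Lmx1b, which specifies excitatory interneurons of the dorsal horn, is an example. It was at 21.5, 24.8 and 22.9 CPM in the Q22 double knock-in, 21.2, 18.4 and 20.6 CPM in NTg and 2.59, 1.61 and 6.02 CPM in the Q33 double knock-in. The Q22 double knock-in and NTg libraries did not overlap but the difference did not pass (log2 difference 0.20, adjusted p = 1.0), and the Q33 double knock-in was lower than the Q22 double knock-in by 2.77 on the log2 scale (log2 difference -2.77, adjusted p = 8.56e-05). Ebf2, another transcription factor of the list, was at 21.7, 33.8 and 31.9 CPM, 32.7, 21.5 and 34.5 CPM, and 1.5, 1.61 and 4.03 CPM in the same order (-3.63 between the double knock-ins).

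The tachykinin gene Tac2 was at 12.3, 16.3 and 14.4 CPM in the Q22 double knock-in, 13.5, 11.8 and 18.9 CPM in NTg and 0.863, 0.362 and 4.29 CPM in the Q33 double knock-in. Npff, which encodes a neuropeptide, was the member farthest from NTg in the Q22 double knock-in (0.737, 0.539 and 0.876 CPM against 0.154, 0.261 and 0.178 CPM), with a log2 difference of 1.85 that did not pass. Between 8 and 10 of the 15 members were called lower, with 1 called higher in 1 case, when each of the 6 double knock-in libraries was left out in turn, and 10 with a term for the caudal Hox level.

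**Figure D5:**
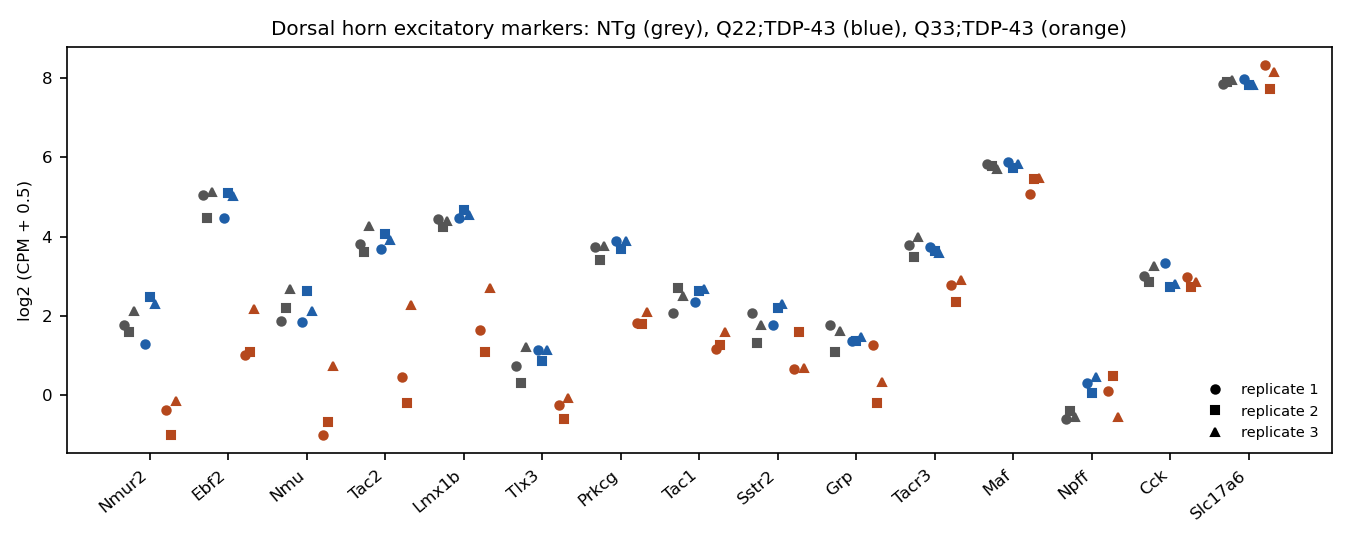
Level, as log2 of CPM plus 0.5, of the 15 dorsal horn excitatory markers tested, in NTg (grey), Q22 double knock-in (blue) and Q33 double knock-in (orange) libraries, with 1 marker shape per replicate number, ordered by the difference between the double knock-ins. The Q22 double knock-in lies with NTg for most genes, and the Q33 double knock-in lies below both on the left, for example Lmx1b at 1.61 to 6.02 CPM against 21.5 to 24.8 CPM.

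Other lists were read in the same comparison of the double knock-ins. Of 35 nuclear oxidative phosphorylation genes, 19 (54.3%, against 12.8% of all genes called) were higher in the Q33 double knock-in and 0 lower (median 0.55), where the Q22 double knock-in had a median of 0.03 and 0 called against NTg. That count was 4 and 26 when the Q33 double knock-in lost replicate 1 and replicate 3, 5 when the Q22 double knock-in lost replicate 3, and 10 with scaling by library totals. Of 15 reactive astrocyte genes, 7 (46.7%) were lower in the Q33 double knock-in and 0 higher, Gfap among them (-1.50). Their median was -1.44, and -0.45 with a term for the caudal Hox level, where 6 were called lower. The count was 5 when the Q33 double knock-in lost replicate 1 and 9 with scaling by library totals. Of 16 immediate early genes, 3 (18.8%, near the 12.8% of all genes) were lower and 0 higher, namely Egr1 (-0.90), Egr3 (-2.89) and Nr4a3 (-1.10). For Egr3 the Q33 double knock-in libraries had 0.375, 0.684 and 0.620 CPM, below all NTg libraries. The mitochondrial ribosomal RNA share was 28.7%, 26.3% and 23.4% in Q33 double knock-in libraries against 19.3%, 20.1% and 16.7% in the Q22 double knock-in, and the summed caudal Hox level was 65.2, 103 and 53.4 CPM in the former. The part of the mitochondrial ribosomal RNA share in these differences was not tested. For the caudal Hox level a term was fitted, with 14 of the 35 oxidative phosphorylation genes called higher, and its part was not tested further. Over all genes, the count of 2650 was 719 when the Q33 double knock-in lost replicate 1, 797 and 1394 when the Q22 double knock-in lost replicate 3 and replicate 2, and 1672 with a term for the caudal Hox level.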

How the data were processed

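Total RNA (QIAzol, miRNeasy columns, DNase) was depleted of ribosomal RNA, made into stranded SMARTer libraries and sequenced as read pairs, per the labels' protocols. Whole-number counts per gene were deposited by the authors in 1 table for 18 animals, made, per the file headers, by featureCounts 1.6.1 counting stranded read pairs over GENCODE mouse exons. Trim Galore 0.4.1, TopHat2, featureCounts, DESeq2 and mm10 are named in the submitters' processing notes. Pairs matching several genes are not counted, so near-identical copies are undercounted. Columns were tied to animals by the number in their names, and 54409 of 54446 gene identifiers (99.93%) had a symbol.

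edgeR 4.0.16 (with limma 3.58.1 in R 4.3.3) ran its quasi-likelihood test on 1 fit of all 18 libraries, with genotype as the only term and TMM scaling, so that the 6 groups share an estimate of the spread. Its low-count filter left 20635 genes. Tests were two-sided, Benjamini-Hochberg adjusted over all genes within a comparison, at 0.05. SEs and 95% intervals of log2 fold changes derive from the test. DESeq2 1.42.0, limma voom with quality weights, other scalings and filters, added terms and leaving out each library were alternatives. The fit was tested on simulated data, with changes set in the Q22 double knock-in among genes of at least 1 CPM. It recovered 24 of 80 changes of 1.5-fold, 56 of 80 of 2-fold and 40 of 40 of 4-fold. Of 20111 unchanged genes, 2 were called. Same-group libraries differed by more than sampling noise in all 18 pairs. The SEs and 95% intervals rest on the spread between animals as well as on counting error. Reads on the human sequences were not analysed here.

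Genes were named by a rule: Atxn2, Tardbp, the caudal Hox genes, and in each direction the 10 largest changes that passed, whose mean reached 1 CPM in NTg or the Q22 double knock-in, with a symbol that is not a gene model, pseudogene or sex-linked gene, filled up by smallest p and given as not called, and the 2 smallest p of lists with 2 or more called members. The groups compared, the lists and the rule were chosen with earlier results of these data known. Some genes that the rule or the lists take are not reported here. Promoter letters are from a RefSeq table of GRCm38.p6.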

Additional observations from a re-analysis of the deposited data

Results flagged for a closer look

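Gabra2, the 1 named gene higher in the Q22 double knock-in than in NTg, differed between the 2 double knock-ins by a direct test. Its log2 difference, Q33 double knock-in minus Q22 double knock-in, was -0.95 (SE 0.14, edgeR's quasi-likelihood test, adjusted p = 0.00057), and all 3 Q33 double knock-in libraries (77.4, 91.9 and 92.3 CPM) lay below all 3 Q22 double knock-in libraries (150, 153 and 202 CPM). This test and the comparison with NTg share the 3 Q22 double knock-in libraries, in which Gabra2 was named for its high level.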

How the results depend on the processing

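The number of genes higher in the Q22 double knock-in (1) was 0 with library totals and with only the groups compared, 28 with no filter on low counts, and 0 to 1 when 1 library was left out. The number lower (1) was 0 with library totals, RLE factors, TMM without mitochondrial ribosomal RNA, a term for the caudal Hox level, a term for Y-linked reads, only the groups compared or limma voom, 11 with no filter, and 0 whenever 1 library was left out. The fit with no filter called 39 genes, caudal Hox and Y-linked genes among them, and the cause was not tested. For Gabra2 the adjusted p was 0.0743 with library totals and 0.0694 with only the groups compared. It ran from 0.0277 to 0.224 with 1 library left out. The interaction (0 genes) gave 193 genes with no filter, 2 in DESeq2 and 0 with any 1 library left out. The count between the double knock-ins (2650) was 1672 with the caudal Hox term, 1383 with only the groups compared and 719 to 3152 with 1 library left out.

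The caudal Hox level (mean log2 CPM, Q22 double knock-in minus NTg, 1.30, two-sided exact permutation p = 0.9) was -0.51 without replicate 1 of the double knock-in and reached 2.28 with another library left out. The difference in mitochondrial ribosomal RNA share (0.927 percentage points) was -0.828 without NTg replicate 1 and reached 1.95. Without replicate 1 of the double knock-in the log2 difference was -1.71 for Hoxa10, -1.02 for Hoxc10, -5.08 for Hoxd10 and -3.59 for Hoxd11 (fitted values that are no bounds, since both remaining libraries had 0 counts of Hoxd10 and Hoxd11), and with limma voom it was -0.27 for Hoxa10 and -0.20 for Hoxd10. Tardbp was 0.0061 without replicate 3. With 1 library left out, the other end of the range was -0.11 for Tardbp, 2.11 for Hoxa10, 1.94 for Hoxc10, 5.93 for Hoxd10 and 6.57 for Hoxd11. Of the other values of named genes, 416 kept direction and side of the threshold, 19 lost the call (6 for Gabra2 and 13 for Gm43041) and 11 gained it, all with no filter.

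No paired analysis was possible because replicate numbers follow the order of deposit and pair no animals. The intervals were widest for genes under 1 CPM. Small differences can have been missed at this depth and with 3 animals a group, and the shares of the 2 were not separated.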
